A study of Mus musculus with 4 samples.

Results

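The 34 genes described here encode subunits of the Polycomb repressive complexes PRC1 and PRC2 and were chosen by name, as known members of these complexes. No measured value enters the rule, although the list was drawn up with earlier results of these data known. Of them, 31 had at least 1 probe set that the platform annotation assigned to that gene alone, 62 probe sets in all, out of 17097 genes with such a probe set. Cbx8, Phf19 and Pcgf3 had none and were not analysed here, and 4 probe sets that list Cbx6 among several genes were left out. The genes were taken in 5 classes: 6 of the PRC2 core, 6 PRC2 accessory subunits, the 2 catalytic subunits of PRC1, 10 subunits of canonical PRC1 and 10 of variant PRC1.

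RNA came from J1 mouse embryonic stem (ES) cells, a pluripotent line grown feeder-free with serum and LIF, and was hybridised to 4 Affymetrix arrays, 1 for each of 4 conditions. Per the labels, all 4 cultures were of a line named iP14, and PRDM14, a transcriptional regulator of pluripotency and of the germ line, was overexpressed by adding Dox. The conditions were a scramble control, the scramble control with PRDM14, a short hairpin knockdown of Tet1 and Tet2, and that knockdown with PRDM14. TET enzymes oxidise 5-methylcytosine, and the series asked what they do in gene regulation by PRDM14. The time of induction was not stated, and an effect of Dox itself cannot be told apart from that of PRDM14. With 1 array per condition there was no replicate spread to hold a difference against.

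Polycomb proteins keep developmental genes silent in ES cells. PRC2 methylates histone H3, with EZH1 or EZH2 as the enzyme, SUZ12 and EED as its scaffold, and accessory subunits that steer it to unmethylated CpG-rich DNA. PRC1 ubiquitinates histone H2A through RING1 or RNF2. Canonical PRC1 contains a CBX protein that reads the PRC2 mark and PHC proteins that cluster chromatin, whereas variant PRC1 contains RYBP or YAF2 in place of CBX, and in its KDM2B form binds CpG islands directly.

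The values are log2 signals, and the median over all probe sets lay between 5.09 and 5.11 on the 4 arrays. All 9 measured ES cell markers were above the expression filter on every array. That filter, 5.40, is the midpoint of the values over probe sets with a gene and not a background level. Col1a1, Col1a2 and Col3a1, markers of fibroblasts, read at most 4.03, 2 of 8 fibroblast markers were above the filter, and the log2 of the summed signal of 8 fibroblast markers ranged from 7.58 to 7.66. Of 5 primitive endoderm markers 1 or 2 were above the filter: Dab2 read 5.75 to 5.94 and Gata6 5.28 to 5.47, while Sox17, Gata4 and Sox7 read at most 4.96. The scramble array lay farthest from the mean of the other arrays over all genes, with a root mean square difference of 0.28 against 0.20 to 0.26. Over the 26 Polycomb genes above the filter on at least 1 array, however, the scramble array labelled with PRDM14 lay farthest out, at 0.47 against 0.25 to 0.34. That order rests on Epop: without it the knockdown array lay farthest out, at 0.31, and the scramble array with PRDM14 was at 0.27. The scramble array with PRDM14 held the highest value of 11 of the 26 genes (42.3%, against 25.9% of all genes), and the knockdown array the lowest of 9 (34.6%, against 20.7%). Tet2 read 8.46 and 9.33 on the scramble arrays and 7.50 and 8.15 on the knockdown arrays, without and with PRDM14. Prdm14 read 4.35 to 4.83, below the filter, so it did not check the labels, and an array with PRDM14 means here the array so labelled. Tet1 was not analysed here.

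Most Polycomb subunits varied by under 0.50 on the log2 scale over the 4 arrays, about as often as genes in general, and the wide differences were held by Epop among the PRC2 accessory subunits and by Kdm2b, Yaf2, Bcor and Pcgf5 among the variant PRC1 subunits. In all, 26 of the 31 genes reached the filter on at least 1 array, 22 of them on all 4. The range over the arrays had a median of 0.39 over these 26 genes, and 21 of them (80.8%) had a range under 0.50. Over all 10519 genes above the filter the median range was 0.26 and 80.4% had a range under 0.50. These 5 genes were the members with at least a 1.5-fold difference in any of the 4 comparisons, 5 of 26 where the background was 13% of all genes. Epop and Yaf2 were past 2-fold in at least 1 comparison, 2 of 26 beside a background of 3.34%. Phf1, Pcgf2, Scmh1, Pcgf1 and Auts2 stayed below the filter on every array and enter no count.

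**Figure D1:**
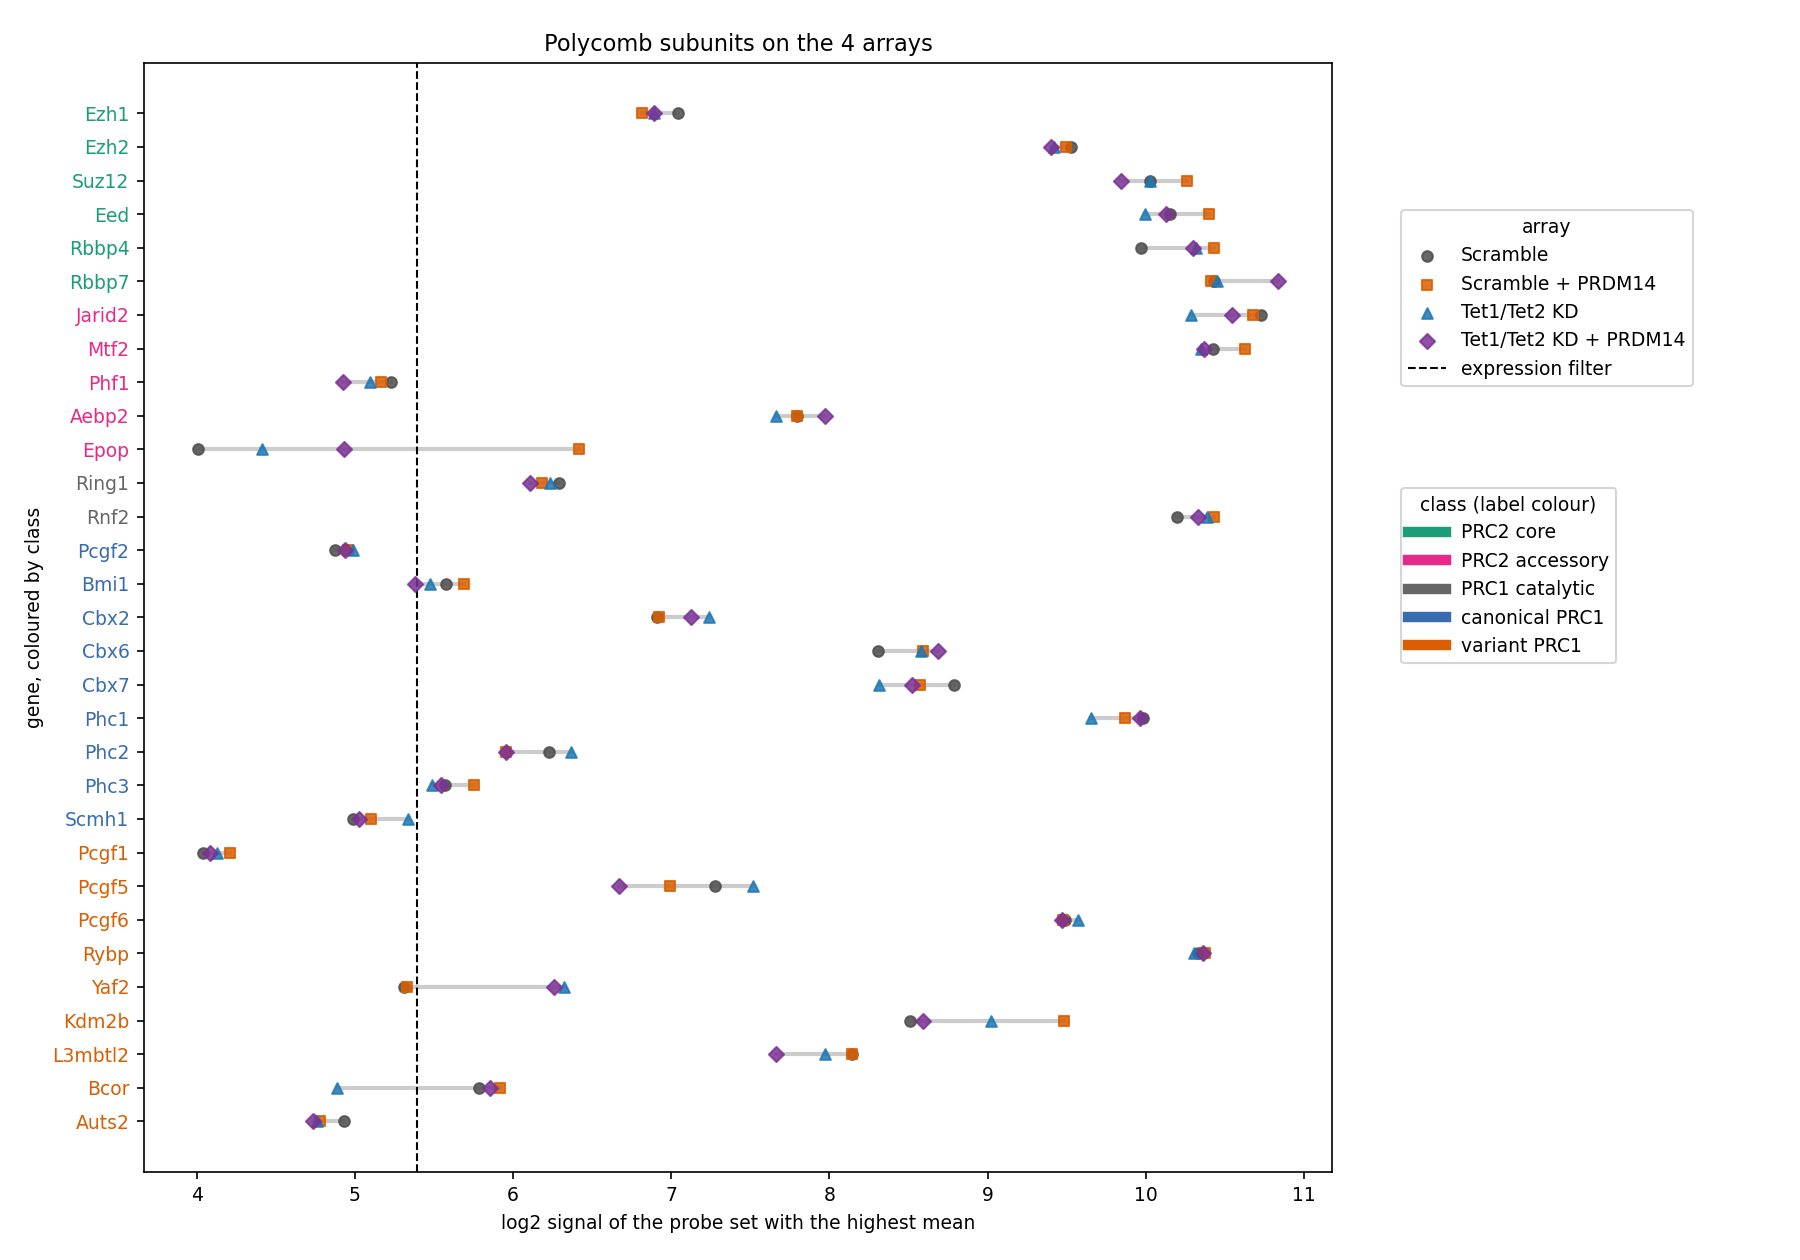
Log2 signal (horizontal axis) of the brightest probe set of each of 31 Polycomb genes (rows), with 1 marker for each of the 4 arrays, a grey bar from lowest to highest and the expression filter of 5.40 as a dashed line. Epop spans from 4.01 to 6.42, Yaf2 reads higher on the knockdown arrays, and most other bars are shorter than 0.50. Positions of different genes are not comparable, since each probe set has its own brightness.

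None of the 6 PRC2 core genes was past 1.5-fold in any comparison, beside a background of 13% of all genes, which for 6 genes is under 1 gene. Their median range of 0.41 was wider than the 0.26 over all genes. The methyltransferase gene Ezh2 read 9.53 and 9.49 on the scramble arrays, without and with PRDM14, and 9.42 and 9.40 on the knockdown arrays. Its range of 0.13 was the narrowest of the core, and the widest was 0.46 for Rbbp4, which encodes a histone-binding WD40 protein. Ezh1, the other methyltransferase gene, read 7.04, 6.81, 6.89 and 6.89 in the same order. Thus both enzyme genes read highest on the scramble array on their brightest probe set. The dimmer Ezh1 probe sets, below the filter on all arrays, did not read highest there.

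Suz12 and Eed, the scaffold genes, read highest on the scramble array with PRDM14. Suz12 read 10.02 and 10.26 on the scramble arrays, without and with PRDM14, and 10.03 and 9.84 on the knockdown arrays. All 6 of its probe sets were higher with PRDM14 in scramble cells, by 0.27 ± 0.04 (SD between 6 probe sets), and all 6 were lower with PRDM14 in knockdown cells, by −0.17 ± 0.08 (SD between 6 probe sets). That spread is technical: the probe sets read the same RNA on the same arrays. Eed read 10.15, 10.40, 9.99 and 10.13, so that its PRDM14 difference was above 0 in both backgrounds, at 0.25 and 0.13. Rbbp4 read 9.97 on the scramble array and 10.30 to 10.43 on the other 3. Its paralog Rbbp7 read 10.41 to 10.45 on 3 arrays and 10.83 on the knockdown array with PRDM14, so the 2 histone-binding subunits stood apart on different arrays.

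Among the PRC2 accessory subunits, Epop had the widest range of all members. EPOP joins PRC2 to the elongin BC complex. Epop read 4.01 and 6.42 on the scramble arrays, without and with PRDM14, and 4.41 and 4.93 on the knockdown arrays. Only the scramble array with PRDM14 was above the filter. The PRDM14 difference was 2.41 (5.31-fold) in scramble cells and 0.52 (1.43-fold) in knockdown cells, and the knockdown difference was 0.40 without and −1.48 with PRDM14. With low values raised to the filter, the differences of 2.41 and −1.48 became 1.02 and −1.02, just past 2-fold. The value rests on 1 probe set, whose s_at suffix is the manufacturer's mark for probes that match more than 1 transcript, so a share from another transcript was not tested.

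Jarid2, whose product tethers PRC2 to chromatin, read lowest on the knockdown array. Its brightest probe set read 10.72 and 10.68 on the scramble arrays without and with PRDM14, and 10.28 and 10.54 on the knockdown arrays. All 3 probe sets were lower in knockdown cells without PRDM14, by −0.46 ± 0.08 (SD between 3 probe sets), and by −0.14 ± 0.05 (SD between 3 probe sets) with PRDM14. Aebp2, a partner of JARID2 in the same form of PRC2, read 7.80, 7.79, 7.66 and 7.97, and was also lowest on the knockdown array. The knockdown difference without PRDM14 was below 0 on all 4 Aebp2 probe sets above the filter, at −0.26 ± 0.17 (SD between 4 probe sets). Mtf2, a Polycomb-like protein gene whose product binds unmethylated CpG DNA, read 10.42, 10.63, 10.35 and 10.37. Its 5 probe sets disagreed on the knockdown difference without PRDM14, from −0.44 to 0.14.

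Both catalytic genes of PRC1 were steady. Rnf2, which encodes the ligase RING1B, read 10.20, 10.43, 10.39 and 10.33, lowest on the scramble array, and its 2 probe sets gave PRDM14 differences of 0.29 ± 0.08 (SD between 2 probe sets) in scramble cells. Ring1 read 6.29, 6.19, 6.23 and 6.11 on the same arrays, highest where Rnf2 was lowest. Their ranges were 0.23 and 0.18.

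The canonical PRC1 subunits had ranges from 0.26 for Phc3 to 0.47 for Cbx7, and none of the 7 above the filter was past 1.5-fold in any comparison, a count close to the background of 13%. Cbx7, which encodes the main chromodomain reader of canonical PRC1 in ES cells, read 8.78, 8.57, 8.31 and 8.52, with its lowest value on the knockdown array and a knockdown difference of −0.47 without PRDM14. With the mean of its 3 probe sets, 2 of which were below the filter, that difference was −0.17. The polyhomeotic gene Phc1 had the same order of arrays at its ends, with 9.98 and 9.86 in scramble cells, without and with PRDM14, and 9.65 and 9.97 in knockdown cells. Cbx2 went the other way between the backgrounds, with 6.91 and 6.92 on the scramble arrays and 7.24 and 7.13 on the knockdown arrays. On this brighter of its 2 probe sets the knockdown differences were above 0 without and with PRDM14, as for 2929 of all 10519 genes. The dimmer one, below the filter on all arrays, gave knockdown differences of 0.09 and −0.06.

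Phc2, another polyhomeotic gene, read lower with PRDM14 in both backgrounds, as did 2913 of all 10519 genes. It read 6.23 and 6.37 on the scramble and knockdown arrays without PRDM14 and 5.95 and 5.96 on the arrays with PRDM14, a pair of differences of −0.27 and −0.41. Cbx6 read 8.30 on the scramble array and 8.58 to 8.69 on the other 3. Bmi1, the PCGF subunit gene of canonical PRC1 that was above the filter, read 5.58, 5.69, 5.48 and 5.38, close to the filter on all arrays, and Phc3 read 5.49 to 5.75.

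The variant PRC1 subunits held the other wide differences: 4 of the 7 above the filter were past 1.5-fold in at least 1 comparison, beside 13% of all genes. Kdm2b encodes the CpG island-binding demethylase that recruits variant PRC1. It read 8.51 and 9.48 on the scramble arrays, without and with PRDM14, and 9.02 and 8.59 on the knockdown arrays. The array with PRDM14 was thus the higher of the pair in scramble cells, by 0.97 (1.96-fold), and the lower of the pair in knockdown cells, by −0.43. The knockdown difference was 0.51 without and −0.89 with PRDM14. All 4 values were well above the filter, on the 1 probe set of the gene.

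Yaf2 read higher in the knockdown both without and with PRDM14, as did 5 of the 26 Polycomb genes in all and 2929 of all 10519 genes. Its product, like RYBP, takes the place of CBX in variant PRC1. Its brighter probe set read 5.31 and 5.33 on the scramble arrays without and with PRDM14 and 6.32 and 6.26 on the knockdown arrays. The second probe set read 5.10 and 4.99 on the scramble arrays and 5.68 and 5.61 on the knockdown arrays. The knockdown difference was 1.01 (2.01-fold) without and 0.93 (1.90-fold) with PRDM14 on the brighter probe set, and 0.58 and 0.62 on the other. The 2-fold mark was not reached with arrays centred on their medians (0.99), with the mean of the probe sets (0.79) or with values raised to the filter (0.93), and the gene left the count when both arrays had to reach the filter. Rybp, the partner in the same position, read 10.33, 10.37, 10.30 and 10.36, and its range of 0.07 was the narrowest of all members above the filter.

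Bcor, a corepressor gene of the KDM2B form, stood apart on the knockdown array. It read 5.79 and 5.91 in scramble cells, without and with PRDM14, and 4.89 and 5.85 in knockdown cells, and the knockdown value was below the filter. The knockdown difference without PRDM14 was −0.90 and the PRDM14 difference in knockdown cells 0.97, and both contain that array. With values raised to the filter they were −0.39 and 0.46, under 1.5-fold.

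Pcgf5, the PCGF subunit gene of another variant PRC1, read lower with PRDM14 in both backgrounds. Its brighter probe set read 7.27 and 7.52 on the scramble and knockdown arrays without PRDM14, and 6.99 and 6.67 on those with PRDM14. The PRDM14 difference was −0.28 in scramble cells and −0.85 in knockdown cells. A dimmer probe set, below the filter on all arrays, gave −0.51 and −0.67. PRDM14 differences below 0 in both backgrounds were found for 7 of the 26 Polycomb genes and 2913 of all 10519 genes.

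The remaining variant PRC1 genes were steadier. Pcgf6, which marks the form shared with L3mbtl2, read 9.47 to 9.57 on its brightest probe set. A second Pcgf6 probe set gave 7.79 in the scramble control and 8.08 to 8.17 in the 3 others. L3mbtl2, a gene for an MBT-domain protein, read 8.14 and 8.14 on the scramble arrays and 7.97 and 7.66 on the knockdown arrays, without and with PRDM14, so its knockdown differences were −0.17 and −0.48.

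**Figure D2:**
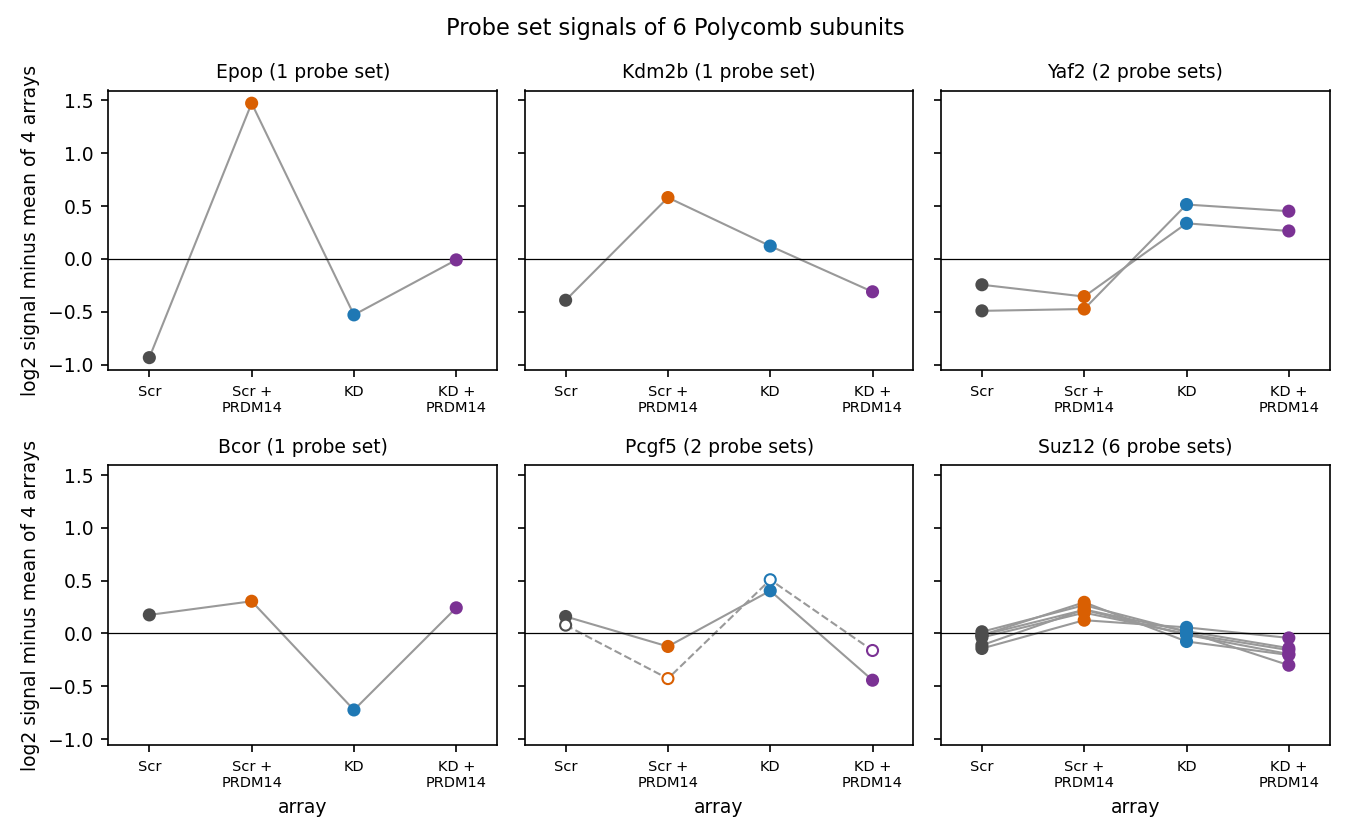
Log2 signal of each probe set minus its own mean over the 4 arrays (vertical axis, same scale in all panels) for 6 Polycomb genes, with the arrays on the horizontal axis (Scr, scramble, and KD, Tet1/Tet2 knockdown). Each line joins the 4 values of 1 probe set and carries no order in time, and open symbols with dashed lines are probe sets below the filter on all arrays. Epop peaks on the scramble array with PRDM14, both Yaf2 lines step up on the knockdown arrays, Bcor dips on the knockdown array, and the 6 Suz12 lines run together.

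Since TET enzymes act on methylated CpG and KDM2B binds unmethylated CpG, promoters of 3 differing genes are shown with their CpG in capitals. Neither methylation nor binding was measured on these arrays. The RefSeq promoter table (GRCm38.p6) held 41 windows of 300 bases for 28 of the 34 genes, and none for Epop, Yaf2, Rybp, Cbx2, Pcgf1 and Auts2. The windows held a median of 23 CpG, from 0 to 54, against a median of 7 over all 32851 windows in the table, and a median GC content of 64.3% against 52.7%. Genes with a narrow range had CpG-rich windows too, with 31 CpG for Ezh2 and 37 for Ring1. The published PRDM14 motif ggtctctaa, searched on both strands, matched 0 of the 41 windows and 84 of all windows (0.26%). The 250 bases before 4 annotated starts, 5′ to 3′ on the gene's strand, are these:
Kdm2b, chr5:122989100-122989349, minus strand, 27 CpG: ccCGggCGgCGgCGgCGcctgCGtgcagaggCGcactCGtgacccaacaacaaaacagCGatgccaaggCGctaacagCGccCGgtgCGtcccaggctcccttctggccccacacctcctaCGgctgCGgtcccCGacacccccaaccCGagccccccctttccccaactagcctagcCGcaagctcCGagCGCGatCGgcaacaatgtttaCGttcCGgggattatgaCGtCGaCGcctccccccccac
Pcgf5, chr19:36348079-36348328, plus strand, 23 CpG: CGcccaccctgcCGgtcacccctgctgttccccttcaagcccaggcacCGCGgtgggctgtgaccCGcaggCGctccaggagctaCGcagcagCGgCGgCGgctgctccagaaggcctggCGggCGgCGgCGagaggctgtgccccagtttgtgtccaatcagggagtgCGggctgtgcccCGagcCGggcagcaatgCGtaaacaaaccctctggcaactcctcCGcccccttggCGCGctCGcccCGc
Pcgf5, chr19:36378817-36379066, plus strand, 4 CpG: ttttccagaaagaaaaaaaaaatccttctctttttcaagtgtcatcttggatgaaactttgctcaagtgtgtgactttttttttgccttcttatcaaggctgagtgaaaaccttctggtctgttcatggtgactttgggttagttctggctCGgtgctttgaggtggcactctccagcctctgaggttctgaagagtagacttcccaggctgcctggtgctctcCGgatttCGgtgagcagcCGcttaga
Bcor, chrX:12160347-12160596, minus strand, 17 CpG: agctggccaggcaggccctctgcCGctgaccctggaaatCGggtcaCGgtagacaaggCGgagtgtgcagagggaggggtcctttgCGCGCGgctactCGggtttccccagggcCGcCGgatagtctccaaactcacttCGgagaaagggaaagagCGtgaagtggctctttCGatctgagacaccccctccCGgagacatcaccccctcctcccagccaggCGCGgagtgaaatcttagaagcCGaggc
Kdm2b has 4 annotated starts in the table, with 12 to 38 CpG in the 250 bases before them, of which the farthest upstream is shown. Pcgf5 has a further start with 28 CpG that is not shown, so its CpG-poor window is the exception among 3. Bcor has a second start, with 16 CpG, whose window overlaps the one shown.

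The comparison of PRDM14 with its control in scramble cells was centred near 0 for Polycomb genes. Of 25 genes above the filter, 13 had a difference above and 12 below 0, and the median was 0.01, against 0.002 over all genes. Epop was past 2-fold, 1 of 25 where 2.09% of all genes were, and Epop and Kdm2b were past 1.5-fold, 2 of 25 beside 8.19%. Class medians were 0.11 for the PRC2 core, 0.10 for the accessory subunits, 0.06 for the catalytic subunits, 0.01 for canonical and 0.02 for variant PRC1.

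In knockdown cells the same comparison had a median of −0.02 over 25 Polycomb genes, with 11 above and 14 below 0. None was past 2-fold, where the background was 0.63%, and Bcor (higher) and Pcgf5 (lower) were past 1.5-fold, 2 of 25 beside 2.81%. The 3 accessory subunits above the filter, Jarid2, Mtf2 and Aebp2, were at 0.26, 0.02 and 0.31, with a median of 0.26. Of their probe sets, 1 of 5 for Mtf2 and 1 of 4 for Aebp2 were below 0. The class medians of the others lay between −0.10 and 0.05.

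The knockdown compared with scramble without PRDM14 gave a median of −0.06 over 25 Polycomb genes, with 11 above and 14 below 0. Yaf2 was past 2-fold, 1 of 25 beside 1.06% of all genes, and Yaf2 (higher) and Bcor (lower) were past 1.5-fold beside 5.09%. Jarid2, Mtf2 and Aebp2, the 3 accessory subunits, were at −0.44, −0.07 and −0.13 here, with a median of −0.13. This comparison shares the scramble array with the first and the knockdown array with the second.

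With PRDM14 on both sides, 18 of 26 Polycomb genes were lower and 8 higher on the knockdown array, beside 5063 lower and 5247 higher of all 10322 genes. The 26 genes were read on the same 2 arrays and are not replicates. This comparison shares the scramble array with PRDM14 with the first and the knockdown array with PRDM14 with the second. That scramble array held the highest value of 11 of the 26 genes (42.3%, against 25.9% of all genes). The median over the Polycomb genes was −0.09, against 0.003 over all genes. Epop was past 2-fold, 1 of 26 beside 1.1%, and Yaf2 (higher), Epop and Kdm2b (lower) were past 1.5-fold, 3 of 26 beside 4.34%. Class medians were −0.11 for the PRC2 core, −0.20 for the accessory and −0.09 for the catalytic subunits, 0.004 for canonical and −0.06 for variant PRC1. The differences of single genes ranged from −1.48 to 0.93, and no class median in any comparison was larger than 0.26 in size.

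**Figure D3:**
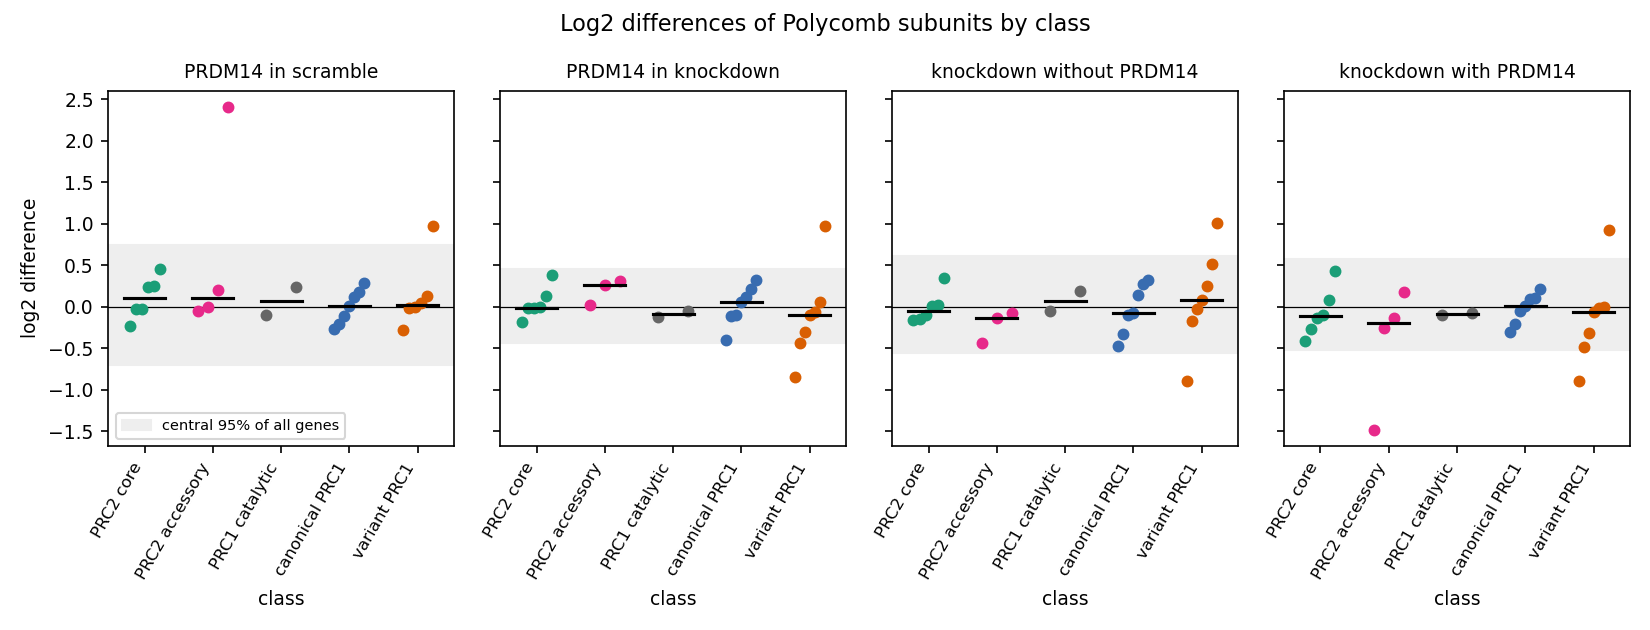
Log2 differences (vertical axis) of the Polycomb genes above the filter by class (horizontal axis) in the 4 comparisons, with 1 point per gene, a black line at the class median and the central 95% of all genes as a grey band. Class medians lie between −0.20 and 0.26, and the points outside the bands are Epop, Kdm2b, Yaf2, Bcor and Pcgf5.

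The sign of 6 of the 20 class medians changed with the mean of the probe sets or without the filter, that of canonical PRC1 in all 4 comparisons. The classes were also set side by side by their range over the arrays. The median range was 0.41 for the PRC2 core, 0.37 for the accessory subunits, 0.21 for the catalytic subunits, 0.33 for canonical PRC1 and 0.85 for variant PRC1, where it ran from 0.07 for Rybp to 1.03 for Bcor. All 6 core genes, both catalytic and all 7 canonical genes had a range under 0.50, as did 3 of 4 accessory and 3 of 7 variant genes, beside 80.4% of all genes. The classes were not tested against each other.

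The PRDM14 difference in scramble cells and that in knockdown cells use different arrays. Of 26 Polycomb genes, 14 had the same sign in both (53.8%), against 55.3% of all genes. The knockdown differences without and with PRDM14 likewise share no array, and 16 of 26 genes had the same sign (61.5%), against 53.2% of all genes. Of the 26 genes, 11 were below 0 in both, beside 2662 of all 10519 genes. By class the knockdown sign was shared by 3 of 6 core, 2 of 4 accessory, 1 of 2 catalytic, 6 of 7 canonical and 4 of 7 variant genes, and the PRDM14 sign by 3, 2, 1, 3 and 5 of them. Among the 5 widely differing genes, Yaf2 and Bcor kept their knockdown sign and Epop, Bcor and Pcgf5 their PRDM14 sign, while Kdm2b changed sign in both pairs.

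**Figure D4:**
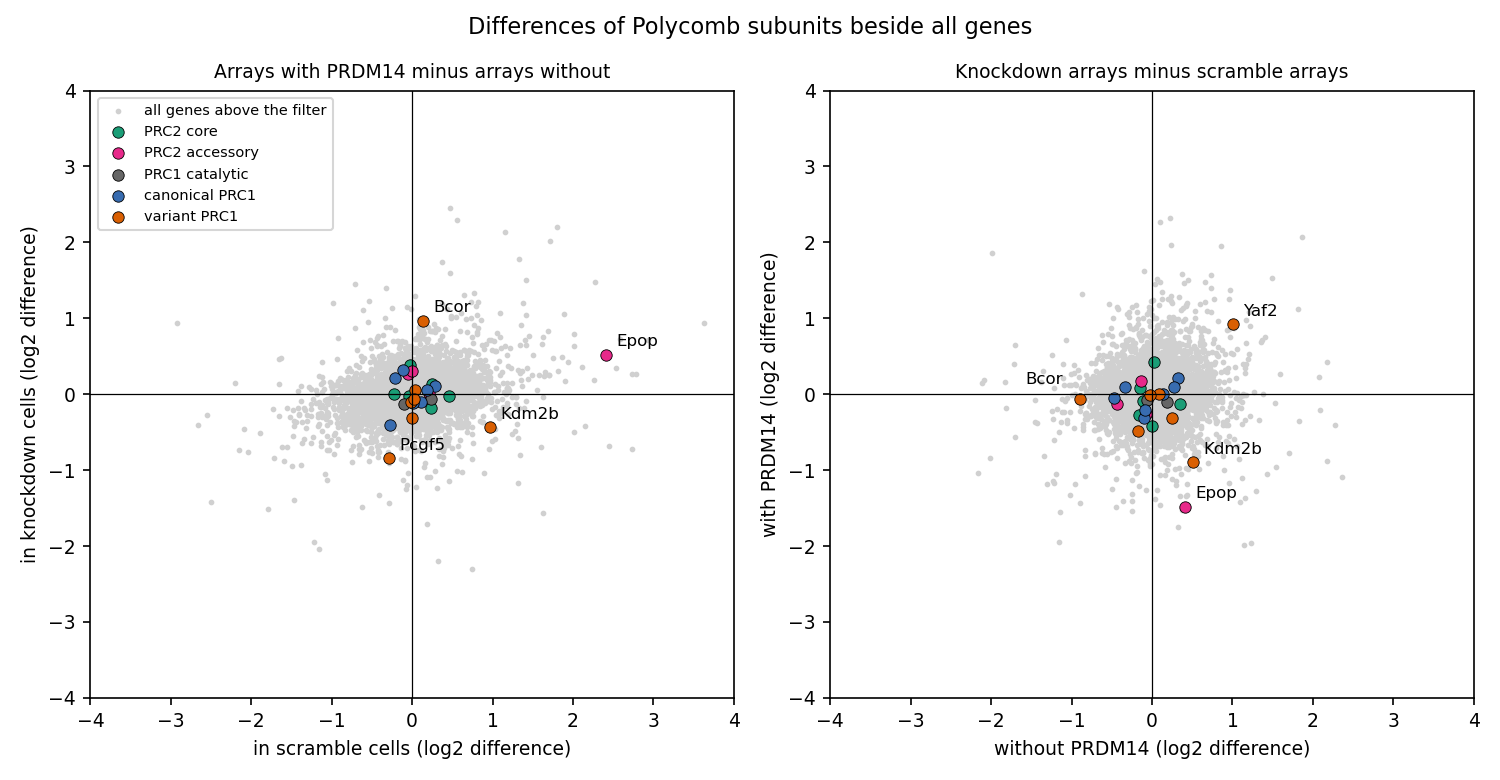
Log2 differences of Polycomb genes (coloured by class) over all genes above the filter (grey), in pairs of comparisons that share no array: PRDM14 in scramble against PRDM14 in knockdown cells (left), and knockdown without against with PRDM14 (right). Genes past 1.5-fold in 1 of the plotted comparisons are named. Yaf2 lies near the diagonal on the right at 1.01 and 0.93, and Kdm2b lies in the lower right quadrant of both panels.

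The difference between the 2 PRDM14 differences was past 2-fold for Epop (−1.89) and Kdm2b (−1.41), 2 of 26 genes beside a background of 2.27%. It was 0.84 for Bcor, −0.56 for Pcgf5 and −0.08 for Yaf2. With no replicates it was not tested.

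An additive model over all 4 arrays, fitted in limma, used this dependence as its error, with 1 residual degree of freedom per gene. Its SE and intervals therefore hold no spread between cultures. They tend to be narrow where the 2 differences of a gene happened to be alike, as for Yaf2. No Polycomb gene passed at a 5% false discovery rate for either average effect, 0 of 26, and the background was 0% of all genes as well. At an unadjusted p under 0.05, Phc2 and Pcgf5 passed for PRDM14, 2 of 26 beside 6.07% of all genes, and Yaf2 for the knockdown, 1 of 26 beside 5.74%. The average knockdown effect on Yaf2 was 0.97 ± 0.07 (SE, 4 arrays; limma adjusted p = 0.80), with a 95% interval from 0.75 to 1.18, rank 41 by size among 10519 genes. The average PRDM14 effect was −0.34 ± 0.08 (SE, 4 arrays; limma adjusted p = 0.78) for Phc2 and −0.57 ± 0.18 (SE, 4 arrays; limma adjusted p = 0.78) for Pcgf5. For Epop it was 1.46 ± 0.53 (SE, 4 arrays; limma adjusted p = 0.78). Ezh2 had a 95% interval of the average knockdown effect from −0.44 to 0.23.

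A wider list held 42 genes of proteins that bind, modify or oppose the Polycomb complexes, of which 36 were on the array and 32 or 33 above the filter. None was past 2-fold in any comparison, where backgrounds of 0.63% to 2.09% amount to under 1 gene. Past 1.5-fold were 2 of 33 with PRDM14 in scramble cells (8.19% of all genes), 0 of 32 with PRDM14 in knockdown cells (2.81%), 2 of 33 in the knockdown without PRDM14 (5.09%) and 2 of 32 with it (4.34%). Sfmbt2, an MBT-domain protein gene, was higher in the knockdown, from 6.54 to 7.47 without and from 6.25 to 7.10 with PRDM14, differences of 0.93 and 0.85. Tfdp1, a dimerisation partner of E2F factors, read 10.06 and 9.34 in scramble cells, without and with PRDM14, and 9.90 and 10.11 in knockdown cells. Mga, a partner of PCGF6, differed by −0.61 in the knockdown without PRDM14, and Ehmt2, a histone H3 methyltransferase gene, by 0.66 with PRDM14 in scramble cells. The list medians were 0.10, 0.03, 0.02 and −0.03 in the order of the 4 comparisons above.

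Genes listed as Polycomb targets of ES cells were mostly dim. Of 46 listed targets 40 were on the array, and 13 or 14 of them were above the filter in a comparison. In scramble cells Wt1 was past 2-fold with PRDM14, 1 of 13 beside the 2.09% above. This zinc finger factor gene of the kidney and gonad read 4.69 without and 5.87 with PRDM14, a difference of 1.17. The value of 4.69 was below the filter, so the size of this difference is uncertain. Pax6, an eye and neural factor gene, read 6.26, 7.12, 5.36 and 5.69 in the order of arrays used above, and was past 2-fold lower in the knockdown with PRDM14 (−1.43). Pax6 is also a neural progenitor marker, and 1 or 2 of 5 such markers were above the filter. The log2 of their summed signal was 7.58 and 8.24 on the scramble arrays and 7.79 and 7.65 on the knockdown arrays. That sum hides opposed values: Tubb3, the other marker above the filter, read highest on the knockdown array, where Pax6 read lowest. Tubb3 read 5.94 and 6.81 on the scramble arrays, without and with PRDM14, so both genes were higher with PRDM14 there. On the knockdown array with PRDM14 Tubb3 read 6.64. The part of these markers in the Pax6 result was not tested. Tbx3, a T-box factor gene, was also lower in the knockdown with PRDM14 (7.93 to 6.89, −1.04), which made 2 of 13 beside 1.1%. It read 7.24 on the scramble array, well above the filter, so it was not among the dim targets. Cdkn2a, a cell cycle inhibitor locus, was lower in the knockdown without PRDM14 (5.63 to 4.50, −1.13), 1 of 14 beside 1.06%. The value of 4.50 was below the filter, so the size of the Cdkn2a difference is uncertain too. With PRDM14 in knockdown cells 0 of 13 targets were past 2-fold, beside 0.63% of all genes, and the list medians lay between −0.11 and 0.10.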

How the data were processed

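Total RNA (150 ng per sample, per the labels' protocols) from 4 cultures was measured on 4 arrays, grouped by the sample titles. The authors deposited log2 probe set signals, with nearly equal distributions over the arrays; log2 was taken from their range, 2.78 to 13.2. The submitters' processing notes name Affymetrix Expression Console, with version, summary method and genome build not given in the sources used here. Of 45141 probe sets, 28898 carried 1 gene symbol, 551 several, and only the former were used; 28689 matched the RefSeq gene table by Entrez identifier and 0 symbols changed. The probe set of highest mean stood for each gene. A gene entered a comparison when the brighter array reached the filter, and 2-fold or 1.5-fold is a size rule, not a test. No column was left out.

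Average effects were fitted in limma 3.58.1 (R 4.3.3, lmFit, eBayes with an intensity trend) and adjusted by Benjamini-Hochberg over 10519 genes. The procedure was tested on simulated data with equal noise for every gene and no dependence between the factors. That run does not show how the fit performs on these arrays. Named were all members with a probe set, and genes of 2 further lists past 2-fold; those of the wider Polycomb list past 1.5-fold were named after their values were seen. Members and lists were chosen with earlier results of these data known. Promoter sequences and coordinates are RefSeq's; the tables used here held no protein sequences. Other probe set choices, filters, scalings and thresholds were tried.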

Additional observations from a re-analysis of the deposited data

Results flagged for a closer look

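Several Polycomb genes differed in opposite directions in the 2 backgrounds by more than the spread between probe sets of 1 gene (pooled SD 0.22 and 0.15 for the PRDM14 differences, 0.21 and 0.16 for the knockdown differences). That spread is technical, since probe sets read the same RNA, and says nothing of the spread between cultures. The same rule was met by 2 of 26 Polycomb genes (7.69%) beside 4.99% of all genes for PRDM14, and by 3 of 26 (11.5%) beside 6.64% for the knockdown. With 1 array per condition none of these contrasts was tested. The PRDM14 difference of Kdm2b was 0.97 in scramble and −0.43 in knockdown cells, a change of −1.41. Its knockdown differences were 0.51 without and −0.89 with PRDM14. Their change is the same −1.41 by arithmetic, as for every gene, and is not a second result. The PRDM14 difference of Suz12 was 0.24 and −0.18, a change of −0.42 that its 6 probe sets shared in sign. The knockdown difference of Epop was 0.40 without and −1.48 with PRDM14, a change of −1.89 in which 3 of the 4 values were below the filter. The knockdown difference of Pcgf5 was 0.24 and −0.32, a change of −0.56, but its dimmer probe set gave 0.43 and 0.27, with no change of sign.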

How the results depend on the processing

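The differences past 2-fold, those of Epop and Yaf2, kept their sign under every alternative that retained them. For Epop this was fixed in advance. It has 1 probe set, and neither raising values to the filter nor centring could reverse a 2-fold difference. The 24 medians over all Polycomb genes kept their sign. Class medians were small and did not all keep theirs: under the 2 alternatives run for them (mean of probe sets, no filter), 6 of 20 changed sign at least once. The canonical PRC1 median in the knockdown without PRDM14 went from −0.08 to 0.03 and 0.11, and with PRDM14 from 0.004 to −0.02. For PRDM14 it went from 0.01 to −0.01 in scramble and from 0.05 to −0.05 in knockdown cells. The PRC2 core in the knockdown without PRDM14 went from −0.05 to 0.02, and the accessory subunits with PRDM14 in scramble from 0.10 to −0.002. The median over the members ran from 0.004 to 0.09 for PRDM14 in scramble, −0.03 to −0.01 for PRDM14 in knockdown, −0.07 to −0.03 for the knockdown without and −0.11 to −0.08 for it with PRDM14. The counts past 2-fold, being 0 or 1, moved more easily. With both arrays required above the filter, 0 members were higher with PRDM14 in scramble, 0 higher in the knockdown without PRDM14 and 0 lower in it with PRDM14, since Epop and Yaf2 drop out. Yaf2 alone made the count in the knockdown without PRDM14, which was 0 with the mean of probe sets, the second brightest probe set (0.58), values raised to the filter or arrays centred on the median. At 1.5-fold the counts were 2 higher with PRDM14 in scramble, 1 higher and 1 lower with PRDM14 in knockdown, 1 lower in the knockdown without PRDM14, and 1 higher and 2 lower in it with PRDM14. At 3-fold they were 0 for the knockdown in both backgrounds. Of 570 differences of single genes under these alternatives 554 moved by less than the spread between probe sets. Much of that was fixed in advance. A change of filter leaves a gene's values as they are, and 15 members have only 1 probe set to choose from. The count therefore says little of stability. Centring moved an array by at most 0.01. The additive limma fit called 0 members under each of its 5 alternatives, but with 1 residual degree of freedom it called 0 of all genes too, so this says nothing of stability (at an unadjusted p under 0.05, 2 members for PRDM14 and 1 or 2 for the knockdown). The alternatives for the dependence and for shared signs were chosen after seeing the data and changed no count by over 1.5 times. No paired analysis was possible because each condition has 1 array and the labels pair no replicates; the additive fit averages each effect over the other factor. Signals near the filter, as for Epop, Yaf2 and Bcor, limit the size of their differences.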
